A study of Homo sapiens with 28 samples.

Results

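The genes described here are 10 SNARE proteins, the membrane proteins that bring a vesicle and its target membrane together for fusion: VAMP1, VAMP2, VAMP3, VAMP4, VAMP8, SNAP23, SNAP25, SNAP29, STX1A and STX4. They are the rows of the deposited gene table with those symbols, 10 of 30887. A repeated symbol would have had its row chosen by the highest mean count, but each symbol had 1 row. The list of symbols was drawn up with earlier results of these data known, and which values entered that choice is not recorded, so the changes below describe these genes and not SNAREs as a class. Of the 10, 9 passed the filter on low counts and were tested with 15058 genes in all. They were measured by RNA sequencing in Kelly cells, an established human neuroblastoma line with an amplified MYCN gene. Cells were reverse transfected with a 25 nM synthetic microRNA, given a change of medium the next day, and collected at 48 h. The 7 groups of 4 libraries received a scrambled control or a mimic: miR-100-3p, miR-1283, miR-99b-5p, miR-1915-3p, miR-485-3p or miR-380-3p. All groups therefore share the cell line, the transfection reagent and the dose, and no untransfected group is among them. Whether the 4 libraries of a group are separate cultures is not stated, and p-values measure the spread between them as they are. Replicates 1 and 4 of miR-1915-3p have a title suffix with no stated meaning.

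SNARE proteins act in sets. An R-SNARE on the vesicle, such as a VAMP (also called a synaptobrevin), zips together with a syntaxin and a SNAP-type protein on the target membrane, and the energy of that bundle drives fusion. In neurons and neuroendocrine cells, VAMP2, SNAP25 and STX1A form the complex that releases transmitter and hormone, while VAMP3, SNAP23 and STX4 serve recycling endosomes and constitutive secretion in most cell types, and SNAP29 serves autophagosomes and other internal membranes. A microRNA pairs through its seed, bases 2 to 8 from its 5′ end, with matches in the 3′ UTR of messenger RNAs, and usually lowers those RNAs.

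The mature sequences of the 6 microRNAs, from RefSeq (GRCh38.p14), are shown because the changes of single SNARE mRNAs are set beside seed matches below; they run 5′ to 3′ and capitals mark the seed. No seed is shared between them.
miR-99b-5p: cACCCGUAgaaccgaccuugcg
miR-380-3p: uAUGUAAUaugguccacaucuu
miR-485-3p: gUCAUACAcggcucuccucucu
miR-100-3p: cAAGCUUGuaucuauagguaug
miR-1915-3p: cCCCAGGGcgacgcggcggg
miR-1283: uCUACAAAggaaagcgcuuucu

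Heptamers complementary to a seed were searched on the sense strand of GENCODE v29 transcripts (GRCh38), taking the longest 3′ UTR per gene. The table's own alignment was to hg19, so these coordinates are from this match and not from the table. Among the 10 SNAREs there were 11 combinations of a gene and a mimic with a match. The 5 for mimics under which any SNARE was called are shown, as 27 bases of the transcript with the heptamer in capitals; the other 6, for miR-1915-3p and miR-1283, are named further down.
VAMP3 for miR-100-3p (chr1:7779719-7779725, plus strand): aacctgctatattatCAAGCTTaccta
SNAP25 for miR-380-3p (chr20:10306680-10306686, plus strand): attagacaatgtggaATTACATaacag
VAMP2 for miR-380-3p (chr17:8160245-8160251, minus strand): gttaattagcgtatcATTACATactgc
VAMP4 for miR-380-3p (chr1:171700487-171700493, minus strand): aaagccacaaagtagATTACATaatta
VAMP1 for miR-485-3p (chr12:6463704-6463710, minus strand): ttttctacagcattcTGTATGAgggca

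The VAMP3 heptamer begins at base 74 of a 3′ UTR of 1787 bases, is followed by an A, and is present in both coding transcripts of the gene. It is the 1 heptamer found in VAMP3 for any of the 6 seeds. SNAP23, SNAP29, STX4 and VAMP8 hold no heptamer for any mimic in the 3′ UTR, and no SNARE of the 10 holds a miR-99b-5p heptamer there. The share of tested genes with a UTR (12535) that hold the heptamer is 1.26% for miR-99b-5p, 15% for miR-380-3p, 14.3% for miR-485-3p, 10.5% for miR-100-3p, 23.1% for miR-1915-3p and 20.8% for miR-1283.

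Libraries held 10.99 M to 23.3 M expected counts (median 15.0 M). Levels are given as CPM, the counts of a gene per M counts of the TMM-scaled library (M for mega), and log2 changes as estimate ± SE from edgeR's quasi-likelihood fit over all 28 libraries. A gene was called at a Benjamini-Hochberg adjusted p under 0.05 over all genes tested. All 8 sympathetic and neuroblastoma markers were expressed, from a median of 85.7 CPM (ISL1) to 4364 CPM (MYCN). Their sum was 8184 to 8979 CPM in controls and lay below that range in every library under miR-99b-5p (5512 to 6984), miR-380-3p (6355 to 7876), miR-485-3p (5831 to 7882) and miR-1915-3p (6560 to 7641), while miR-100-3p (8827 to 10295) and miR-1283 (7063 to 9453) overlapped it. Of 6 markers of other cell types, PTPRC had no row, PECAM1 had a median of 0, and the others had medians of 0.362 to 7.05 CPM. The sum of these other markers was 12.2 to 15.0 CPM in controls, 6.38 to 7.74 under miR-99b-5p, 13.4 to 17.1 under miR-380-3p, 9.36 to 12 under miR-485-3p and 11.3 to 13.5 under miR-100-3p; the part of either set in the results was not tested. Libraries also differed in how strongly their levels followed the GC content of transcripts. The GC slope, the slope of a library's log2 CPM (after subtracting each gene's mean) on the GC fraction of the longest transcript, ran from -2.16 to 3.04, and only miR-99b-5p replicate 2 and miR-485-3p replicate 2 lay beyond 2 in size.

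Per kilobase of the authors' gene length, VAMP2 and VAMP3 were the most abundant of the 10 in control cells, at 39.5 ± 5.02 and 37.1 ± 2.72 CPM per kb (SD, n = 4), and their library ranges overlapped. SNAP25 (27.4 ± 2.47) and SNAP23 (24.5 ± 1.46) came next, again with overlapping ranges, so the neuronal and the widely expressed SNAP were present at similar levels. SNAP29 (19.7 ± 0.711) and the syntaxin of the neuronal complex, STX1A (19.3 ± 3.00), overlapped too. VAMP1 (11.9 ± 0.827), a close relative of VAMP2, lay apart from its neighbours on both sides. STX4 (6.18 ± 0.878), a plasma membrane syntaxin, and VAMP4 (5.13 ± 0.241), an R-SNARE of the trans-Golgi network and endosomes, were the lowest of the 9 tested genes and overlapped. VAMP8, an R-SNARE of late endosomes and of exocytosis in secretory cells, had 8 expected counts over all 28 libraries, none above 2 in a library, so it was at or under the floor of 3 counts everywhere and no fold is given. Its counts by group were 1 in controls, 0 under miR-99b-5p and miR-1915-3p, 1 under miR-380-3p and miR-100-3p, 2 under miR-485-3p and 3 under miR-1283. In GENCODE v29, exons of VAMP1, SNAP23, SNAP29 and STX1A share bases with a gene on the opposite strand and those of VAMP2 with a gene on the same strand. Whether the authors' counting used strand is not given in the sources used here, so reads from the shared bases cannot be told apart.

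**Figure D1:**
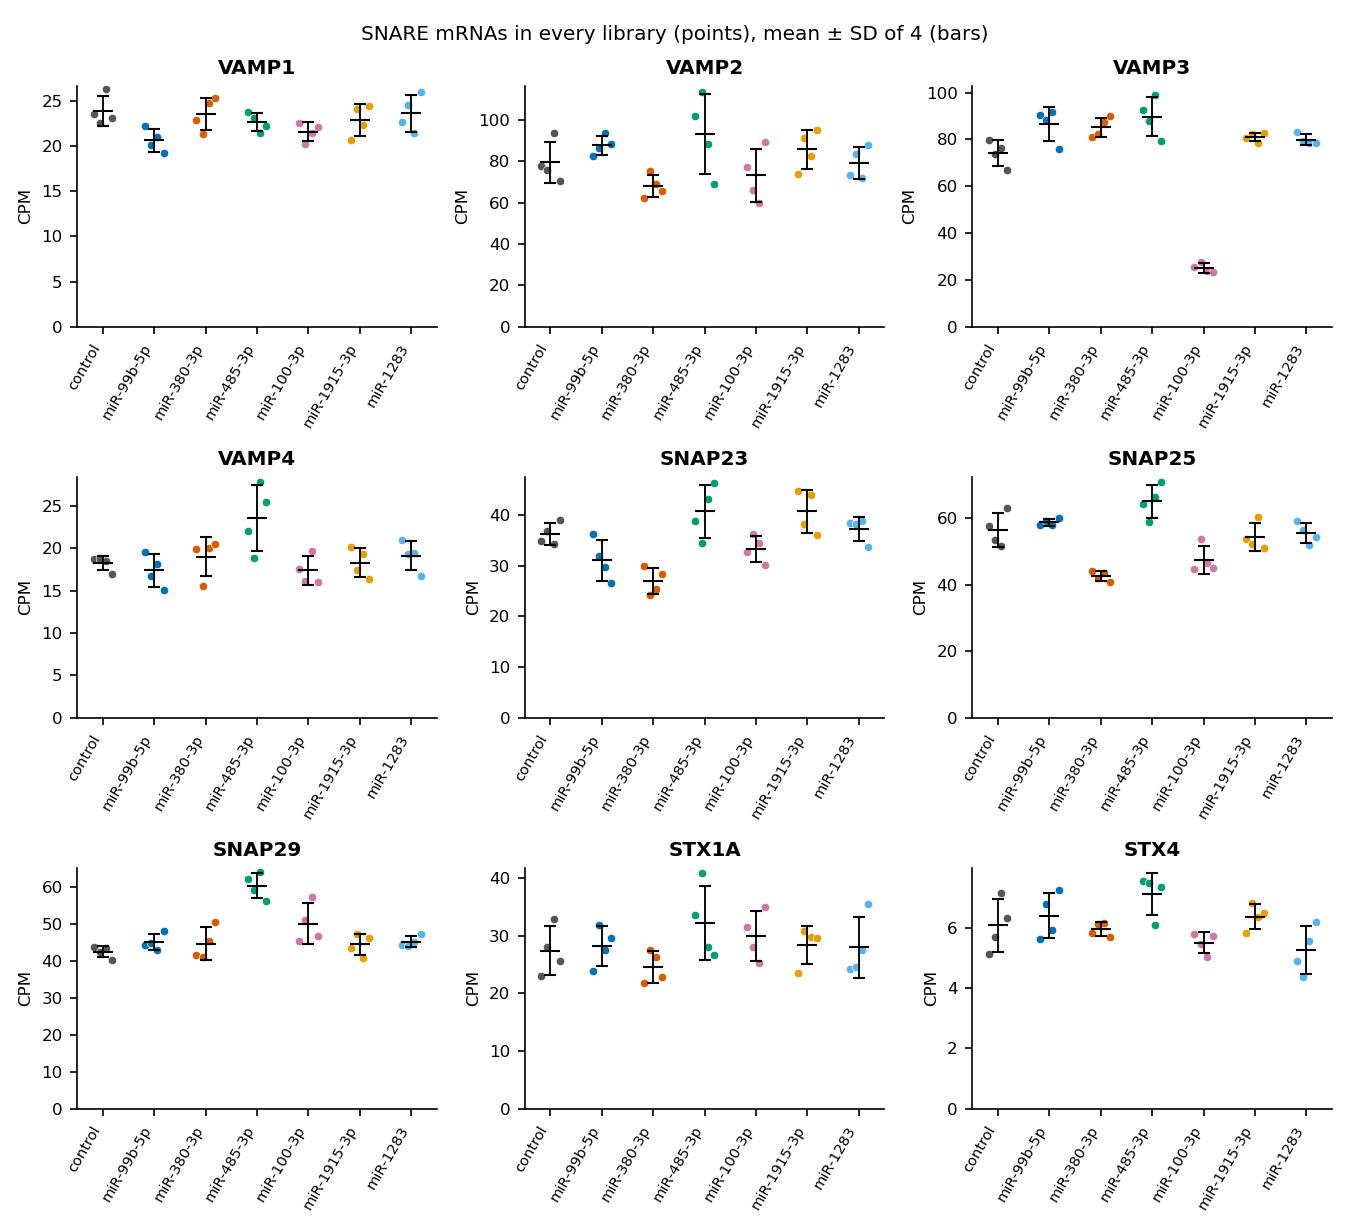
Levels of the 9 tested SNARE mRNAs in CPM (vertical axes, each from 0) in every library (points) of the 7 groups (horizontal axes), with the mean and SD of 4 libraries (bars). The 4 miR-100-3p libraries of VAMP3 lie at 23.4 to 27.7 CPM, and the other 24 libraries of that gene at 66.9 to 99.1 CPM.

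Of the 54 combinations of 9 genes and 6 mimics, 9 were called, 5 higher and 4 lower than the control, and 1 of them exceeded a 2-fold change. Under miR-99b-5p 1 SNARE rose and 0 fell, where 16.6% of all genes tested were called (8.11% higher, 8.48% lower). Under miR-380-3p 0 rose and 2 fell (background 10.9%; 5.6% higher, 5.25% lower), and under miR-485-3p 4 rose and 0 fell (background 21.1%; 10.5% higher, 10.6% lower). Under miR-100-3p 0 rose and 2 fell (background 5.96%; 2.9% higher, 3.05% lower). None was called under miR-1915-3p (background 0.246%) or miR-1283 (background 0.0199%) by edgeR; DESeq2 also called none, and 0 of the 9 had an unadjusted p under 0.05 for either mimic. The median log2 change of the 9 genes was 0.23 under miR-485-3p, beside 0.02 over all genes, and -0.12 under miR-100-3p, beside -0.01; under the other 4 mimics it lay between -0.03 and 0.07. Of the 9 genes, 5 (55.6%) were called under at least 1 mimic, beside 39% of all genes tested. The genes were chosen with earlier results of these data known, and the 6 comparisons share the 4 control libraries, so these counts are descriptions.

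**Figure D2:**
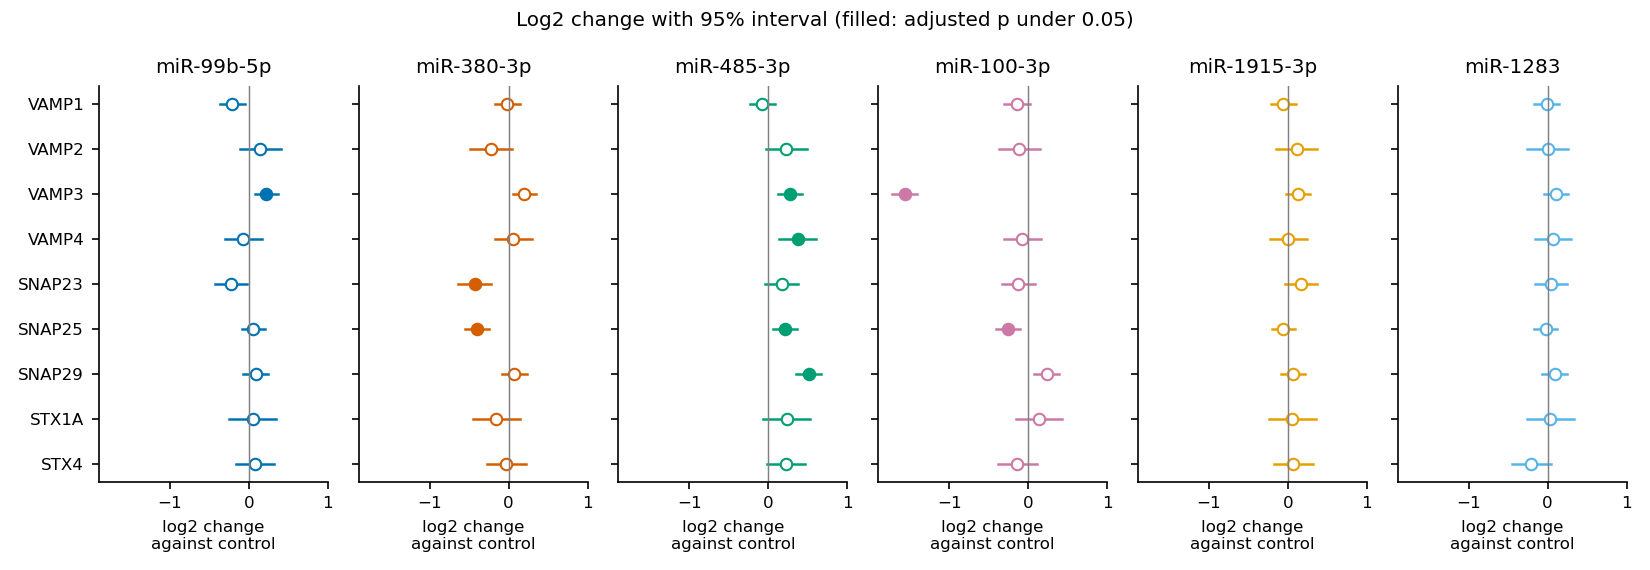
Log2 change against the scrambled control (horizontal axes) with its 95% interval for 9 SNARE mRNAs under each mimic (panels); filled points have an adjusted p under 0.05. The VAMP3 interval under miR-100-3p, -1.72 to -1.41, lies apart from all other intervals.

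VAMP3 (ENSG00000049245, chr1:7771269-7781432 in GRCh38), the endosomal R-SNARE also known as cellubrevin, fell to 33.8% of its control level under miR-100-3p, the mimic for which its 3′ UTR holds the heptamer CAAGCTT. It had 79.7, 73.8, 76.4 and 66.9 CPM in the 4 controls and 25.7, 27.7, 23.7 and 23.4 CPM in the 4 miR-100-3p libraries. The groups were far apart, with every miR-100-3p library below every other library of the series. The log2 change was -1.56 ± 0.08 (adjusted p = 8.46e-14, edgeR), with a 95% interval of -1.72 to -1.41. It was the gene with the second smallest p of all tested in that comparison, and the miR-100-3p values rest on 269 to 500 counts a library. In bulk RNA, fewer cells with the transcript and less transcript per cell cannot be told apart. In direct tests VAMP3 was lower under miR-100-3p than under each of the other 5 mimics, by log2 differences from -1.84 (against miR-485-3p, adjusted p = 1.56e-15) to -1.67 (against miR-1283, adjusted p = 2.2e-14, edgeR).

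Under the other 5 mimics the mean of VAMP3 lay above the control mean, and the difference passed the threshold for miR-485-3p and miR-99b-5p. It had 92.7, 88.0, 99.1 and 79.3 CPM under miR-485-3p, a mean of 89.8 ± 8.32 (SD, n = 4) against 74.2 ± 5.44 in controls. The lowest miR-485-3p library lay just under the highest control, and the log2 change was 0.28 ± 0.07 (adjusted p = 0.00699, edgeR). Under miR-99b-5p it had 90.5, 88.2, 91.6 and 75.9 CPM, with 1 library inside the control range, and the change of 0.22 ± 0.07 (adjusted p = 0.0341, edgeR) passed the threshold in only 7 of 17 alternative analyses. Leaving out control replicate 2, 4 or 5, or miR-99b-5p replicate 2, 3 or 4, ended the call (adjusted p 0.0513 to 0.134, edgeR). The miR-485-3p rise was not called when miR-485-3p replicate 3 was left out (0.21, adjusted p = 0.0846, edgeR). Nor was it called with no filter (0.26, adjusted p = 0.054) or with only the 8 libraries (0.26, adjusted p = 0.0811, edgeR). Under miR-380-3p the 4 libraries, 81.0 to 89.9 CPM, all lay above the controls, but the change of 0.20 ± 0.07 did not pass the threshold (adjusted p = 0.0781, edgeR; 0.0489 with the GC slope as covariate). Under miR-1915-3p (81.1 ± 1.91 CPM) and miR-1283 (79.9 ± 2.34 CPM) the library ranges overlapped the controls.

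VAMP2, the main synaptic vesicle R-SNARE, was not called under any mimic in the fit described above, and its libraries were spread widely. It had 77.6, 75.8, 93.9 and 70.5 CPM in controls and 62.3, 75.1, 69 and 65.5 CPM under miR-380-3p, for which it holds a heptamer. These groups overlapped, and the log2 change was -0.22 ± 0.13 (adjusted p = 0.288, 95% interval -0.49 to 0.04, edgeR). Under miR-485-3p it had 102, 114, 88.1 and 69 CPM, from below the lowest control to above the highest, and the change was 0.23 ± 0.13 (adjusted p = 0.217, 95% interval -0.03 to 0.49, edgeR). That change was called with the replicate number as a block (0.28, adjusted p = 0.0486), with the GC slope as covariate (0.20, adjusted p = 0.0417) and without miR-485-3p replicate 5 (0.33, adjusted p = 0.0359, edgeR). The 2 mimics differed when compared directly, with VAMP2 lower under miR-380-3p than under miR-485-3p by 0.45 ± 0.13 on the log2 scale (adjusted p = 0.00815, edgeR). Over all genes, 29% were called in that comparison, and the direct test of VAMP2 was not rerun in the alternative analyses.

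VAMP1, which shares much of VAMP2's role and is prominent in spinal and motor circuits, varied little. Its control libraries had 23.5, 22.6, 26.3 and 23.1 CPM and its miR-99b-5p libraries 22.3, 20.1, 21.0 and 19.2 CPM. The groups did not overlap, yet the log2 change of -0.21 ± 0.08 did not pass the threshold (adjusted p = 0.0682, edgeR). Under miR-485-3p, for which it holds a heptamer, it had 22.6 ± 1.01 CPM against 23.9 ± 1.66 in controls (SD, n = 4), and the ranges overlapped.

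VAMP4 (ENSG00000117533, chr1:171700160-171742247 in GRCh38) rose under miR-485-3p. It had 18.7, 18.8, 18.5 and 17.0 CPM in controls and 22.0, 18.9, 27.8 and 25.5 CPM under miR-485-3p. The groups did not overlap, but the lowest treated library was next to the highest control. The change was 0.37 ± 0.11 (adjusted p = 0.0187, edgeR), and it was not called without miR-485-3p replicate 3 (0.26, adjusted p = 0.16), without miR-485-3p replicate 5 (0.32, adjusted p = 0.0725) or without control replicate 5 (0.34, adjusted p = 0.0595). Nor was it called with no filter (0.35, adjusted p = 0.0554) or with only the 8 libraries (0.36, adjusted p = 0.076, edgeR). Under miR-380-3p, for which its 3′ UTR holds a heptamer, VAMP4 had 19.0 ± 2.29 CPM against 18.2 ± 0.856 in controls.

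The summed level of VAMP1 to VAMP4 per kilobase was 93.7 ± 7.74 CPM per kb in controls and 64.6 ± 6.14 under miR-100-3p (SD, n = 4), and the ranges, 84.8 to 103 and 57.9 to 71.6, did not overlap. VAMP3 made up 39.7% ± 2.01 of that sum in controls and 19.6% ± 2.60 under miR-100-3p. VAMP2 made up 42.1% ± 2.14 and 56.1% ± 4.54, while its own level, 73.2 ± 12.9 CPM under miR-100-3p against 79.4 ± 10.1, overlapped the controls. For the other 5 mimics the VAMP3 share lay between 40.7% and 45.5%. These sums and shares describe levels of mRNA and were not tested.

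**Figure D3:**
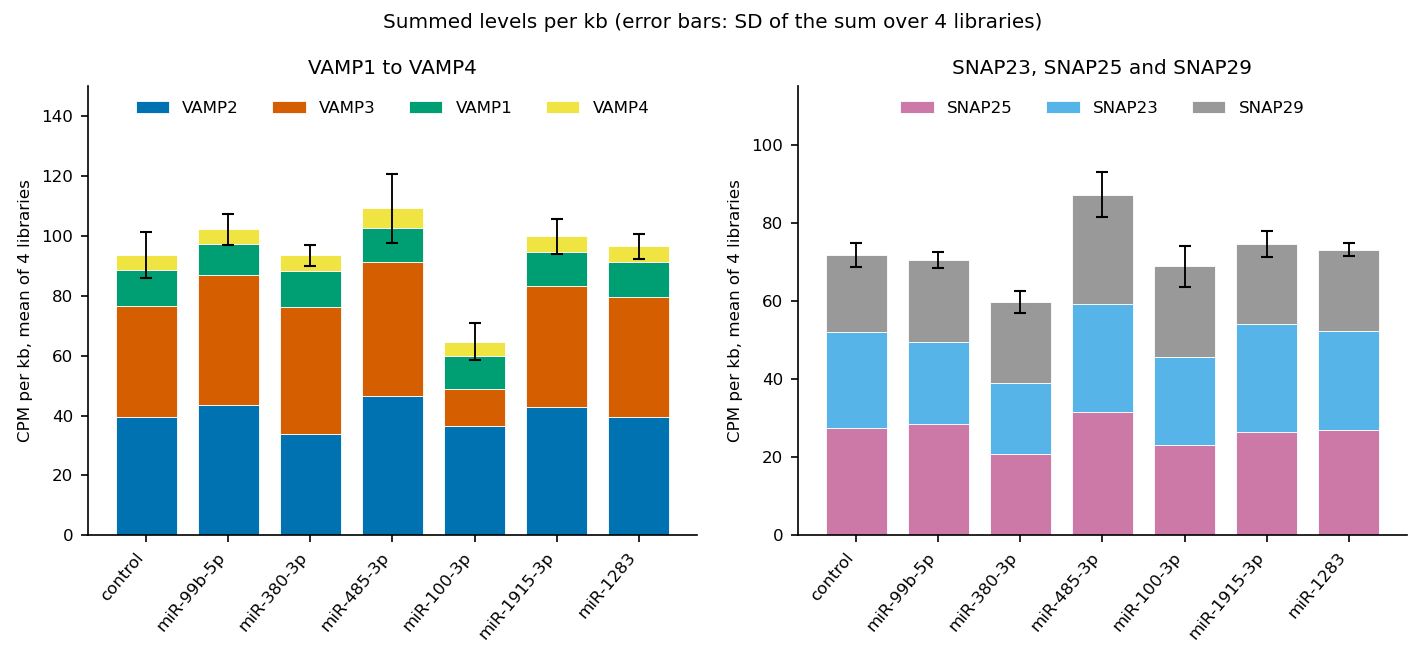
Mean level per kilobase of gene length (CPM per kb, vertical axes) of the VAMP mRNAs (left) and SNAP mRNAs (right) stacked for each group, with the SD of the sum over 4 libraries. The VAMP sum is lowest under miR-100-3p (64.6) and the SNAP sum lowest under miR-380-3p (59.7) and highest under miR-485-3p (87.2).

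Among the SNAP proteins, which give a pair of helices to the fusion bundle, SNAP25 and SNAP23 fell under miR-380-3p, and SNAP29 rose under miR-485-3p. SNAP25 (ENSG00000132639, chr20:10218830-10307418 in GRCh38), the SNAP of regulated exocytosis in neurons and the substrate of several botulinum toxins, had 57.8, 53.6, 51.6 and 63.1 CPM in controls. Under miR-380-3p, for which it holds the heptamer ATTACAT followed by an A, it had 44.3, 42.1, 43.5 and 40.9 CPM. All 4 lay below all controls and below the other 24 libraries of the series. The log2 change was -0.41 ± 0.07 (adjusted p = 0.000461, 95% interval -0.56 to -0.25, edgeR) and was called in 17 of 17 alternative analyses.

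SNAP25 had 64.3, 58.9, 66.5 and 70.9 CPM under miR-485-3p, with 1 library inside the control range. The change of 0.21 ± 0.07 (adjusted p = 0.045, edgeR) was called in only 7 of 17 alternatives and not without control replicates 1, 2 or 4 or miR-485-3p replicates 1, 3 or 5 (adjusted p 0.068 to 0.193). Under miR-100-3p it had 44.7, 53.6, 46.7 and 44.9 CPM, again with 1 library inside the control range. That change, -0.25 ± 0.07 (adjusted p = 0.0392, edgeR), was also called in 7 of 17 alternatives and not without control replicates 1, 2 or 5 or miR-100-3p replicates 1, 3 or 4 (adjusted p 0.0503 to 0.171). In the direct test SNAP25 was lower under miR-380-3p than under miR-485-3p by 0.61 ± 0.07 on the log2 scale (adjusted p = 4.05e-07, edgeR).

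SNAP23 (ENSG00000092531, chr15:42491233-42545356 in GRCh38), the widely expressed counterpart of SNAP25, had 35.0, 37.0, 34.3 and 39.1 CPM in controls and 30.0, 24.2, 25.5 and 28.4 CPM under miR-380-3p. The groups did not overlap, and the change was -0.43 ± 0.10 (adjusted p = 0.00542, 95% interval -0.64 to -0.22, edgeR), called in 17 of 17 alternatives. Unlike SNAP25 it holds no heptamer for miR-380-3p, and none of its 10 coding transcripts with an annotated 3′ UTR holds even the hexamer complementary to bases 2 to 7. In direct tests SNAP23 was lower under miR-380-3p than under miR-485-3p (-0.60 ± 0.10, adjusted p = 5.01e-05) and lower than under miR-1283 (-0.47 ± 0.10, adjusted p = 0.00206, edgeR). Under miR-99b-5p its libraries had 36.3, 31.9, 29.7 and 26.5 CPM, partly inside the control range, and the change was -0.22 ± 0.10 (adjusted p = 0.13, edgeR). That change passed the threshold without miR-99b-5p replicate 2 (-0.31, adjusted p = 0.0474), without both libraries of GC slope beyond 2 (-0.31, adjusted p = 0.0304) and with the GC slope as covariate (-0.35, adjusted p = 0.000111, edgeR).

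SNAP29 (ENSG00000099940, chr22:20858983-20891218 in GRCh38), which joins STX17 in the fusion of autophagosomes with lysosomes, had 43.7, 42.5, 43.5 and 40.3 CPM in controls and 62.3, 59.1, 64.0 and 56.3 CPM under miR-485-3p. All 4 treated libraries lay well above all controls. The change was 0.51 ± 0.08 (adjusted p = 1.63e-05, 95% interval 0.35 to 0.66, edgeR), the largest rise of a SNARE among the 9, and it was called in 17 of 17 alternatives. In direct tests it was higher under miR-485-3p than under each of the other 5 mimics, by 0.27 ± 0.07 against miR-100-3p (adjusted p = 0.00713) up to 0.44 ± 0.08 against miR-1915-3p (adjusted p = 7.79e-05, edgeR). Under miR-100-3p the libraries had 45.3, 51.0, 57.4 and 46.7 CPM, all above the controls, and the change of 0.24 ± 0.08 narrowly missed the threshold (adjusted p = 0.0644, edgeR); DESeq2 gave an adjusted p of 0.0363, and edgeR gave 0.0415 with the GC slope as covariate, 0.033 without miR-100-3p replicate 1 and 0.0497 without miR-100-3p replicate 4.

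The 3 SNAP mRNAs together had 71.7 ± 3.07 CPM per kb in controls, 59.7 ± 2.85 under miR-380-3p and 87.2 ± 5.79 under miR-485-3p (SD, n = 4). The control range, 68.4 to 75.7, overlapped neither of those. The SNAP25 share of the sum was 38.2% ± 1.84 in controls, 34.8% ± 2.08 under miR-380-3p and 36.3% ± 0.861 under miR-485-3p. The SNAP29 share was 27.5% ± 2.03 in controls and 34.7% ± 2.51 under miR-380-3p, where SNAP29 itself, at 44.7 ± 4.4 CPM, overlapped the controls (42.5 ± 1.53 CPM).

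Neither syntaxin among the 10 was called under any mimic in the fit described above. STX1A, the plasma membrane partner of SNAP25 and VAMP2, had 23.0, 28.0, 32.9 and 25.6 CPM in controls and 33.5, 40.8, 28.1 and 26.6 CPM under miR-485-3p. The groups overlapped, and the change was 0.23 ± 0.14 (adjusted p = 0.276, 95% interval -0.06 to 0.53, edgeR). STX4, which serves exocytosis of constitutive and insulin-regulated vesicles, had 5.14, 5.70, 7.16 and 6.31 CPM in controls and 7.55, 7.48, 6.10 and 7.37 CPM under miR-485-3p, again with overlap (0.23 ± 0.12, adjusted p = 0.191, 95% interval -0.02 to 0.47, edgeR). Under miR-1283 STX4 had 5.26 ± 0.791 CPM against 6.08 ± 0.864 in controls, with overlapping ranges. STX4 was lower under miR-1283 than under miR-485-3p in the direct test, by 0.43 ± 0.12 on the log2 scale (adjusted p = 0.0101, edgeR). That comparison called 19.5% of all genes, and the direct test of STX4 was not rerun in the alternative analyses.

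The levels of the SNAREs with GC-rich transcripts followed the GC slope of the library. Across the 28 libraries, which share groups and are not independent of them, the Pearson correlation of log2 CPM with the GC slope was 0.78 for STX1A (transcript GC 60.2%), 0.64 for VAMP2 (53.4%), 0.56 for STX4 (58.5%) and 0.35 for VAMP1 (53.3%). It was 0.07 for VAMP3 (42.7%), 0.05 for SNAP29 (47.3%), -0.06 for SNAP25 (39.6%), -0.22 for SNAP23 (41.4%) and -0.39 for VAMP4 (34.9%). The library with the highest slope, miR-485-3p replicate 2, was also the highest of all 28 for STX1A (40.8 CPM) and VAMP2 (114 CPM). With the slope as a covariate of the fit, 5 of 9 SNAREs were called under miR-99b-5p, 3 under miR-380-3p, 7 under miR-485-3p and 5 under miR-100-3p. Calls over all genes rose too, from 2498 to 3497 under miR-99b-5p and from 1634 to 2778 under miR-380-3p. They rose from 3176 to 4878 under miR-485-3p and from 897 to 1764 under miR-100-3p. In that fit VAMP2 changed by 0.29 (adjusted p = 0.00671) and STX1A by 0.24 (adjusted p = 0.018) under miR-99b-5p, and STX1A by 0.25 (adjusted p = 0.0207, edgeR) under miR-100-3p. Other calls made with the covariate but not in the fit without it had adjusted p from 0.000111 to 0.0489 (edgeR). They were VAMP4 (-0.20) and SNAP23 (-0.35) under miR-99b-5p, VAMP3 (0.19) under miR-380-3p, and SNAP23 (-0.20) and SNAP29 (0.22) under miR-100-3p. Under miR-485-3p they were VAMP2 (0.20), SNAP23 (0.17) and STX1A (0.20). Of these, SNAP23 under miR-99b-5p, VAMP2 under miR-485-3p and SNAP29 under miR-100-3p were also called in other alternatives, as given above. VAMP3 under miR-100-3p, SNAP25 and SNAP23 under miR-380-3p and SNAP29 under miR-485-3p were called with and without the covariate.

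**Figure D4:**
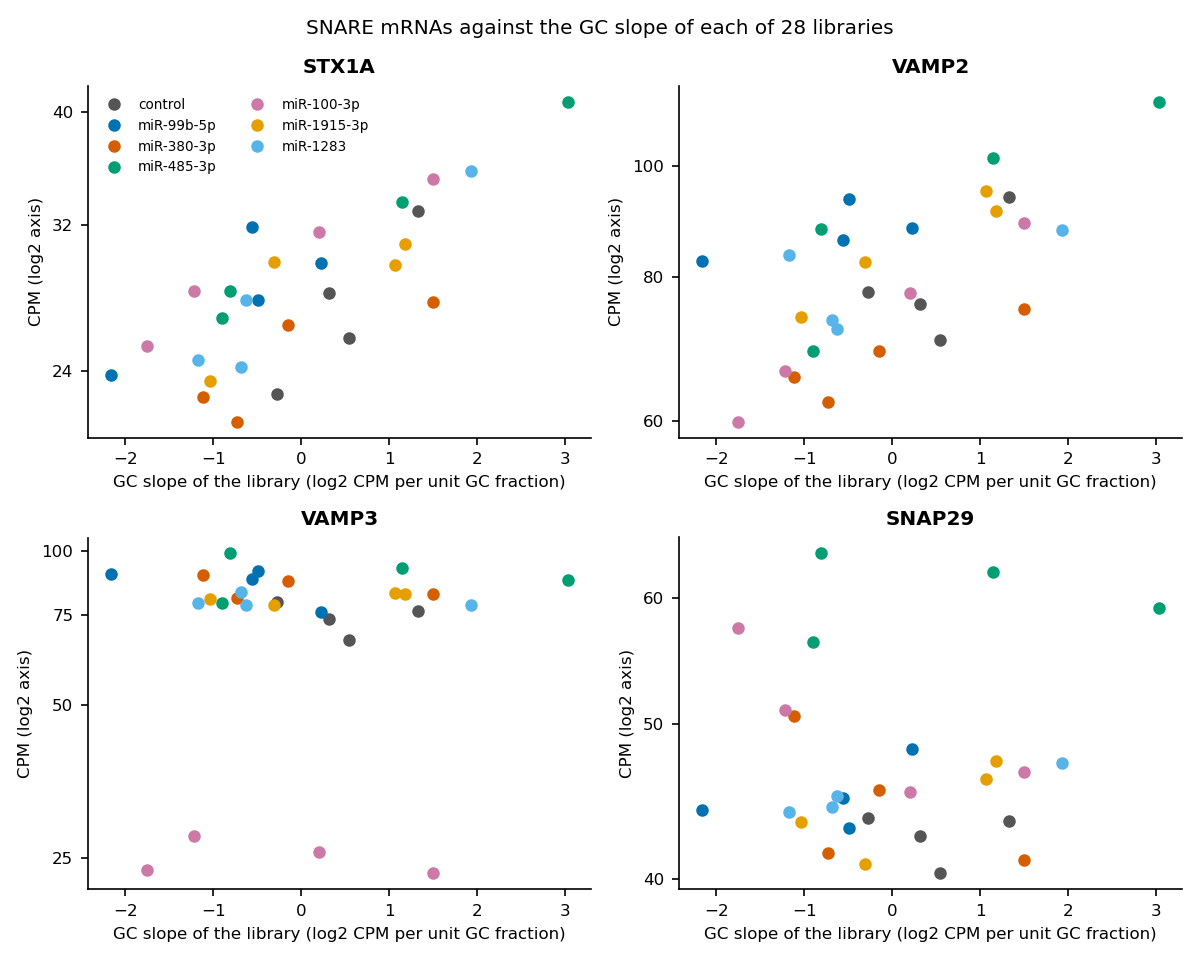
CPM on a log2 axis (vertical) of STX1A, VAMP2, VAMP3 and SNAP29 against the GC slope (horizontal, log2 CPM per unit of GC fraction) of each of 28 libraries, coloured by group. STX1A (r = 0.78) and VAMP2 (r = 0.64) rise with the slope, while VAMP3 (r = 0.07) and SNAP29 (r = 0.05) do not. The 4 miR-100-3p libraries lie below all others for VAMP3. For SNAP29 the 4 miR-485-3p libraries (56.3 to 64.0 CPM) lie above all others but 1, miR-100-3p replicate 3 (57.4 CPM).

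Across the 54 combinations, 11 had a heptamer for the mimic in the longest 3′ UTR and 43 had none. Of the 11, 2 were called lower and 0 higher: VAMP3 under miR-100-3p and SNAP25 under miR-380-3p. Of the 43, 2 were called lower and 5 higher. The 11 include 4 for miR-1283 and 2 for miR-1915-3p, mimics with few calls over all genes, and none for miR-99b-5p. The counts therefore rest on different mixes of mimics. Among the 43, SNAP25 was called lower under miR-100-3p and holds a heptamer for that mimic upstream of its 3′ UTR. This upstream match is in 2 of 2 coding transcripts with an annotated 3′ UTR. SNAP29 holds a miR-1915-3p heptamer upstream of its 3′ UTR and was not called under that mimic. VAMP2 and VAMP4 hold the miR-380-3p heptamer, as SNAP25 does, and were not called under that mimic; it is in 1 of 4 VAMP2, 1 of 2 VAMP4 and 2 of 2 SNAP25 coding transcripts with an annotated 3′ UTR. The 4 genes with a miR-1283 heptamer (VAMP1, VAMP2, VAMP4 and SNAP25) and the 2 with a miR-1915-3p heptamer (VAMP1 and STX1A) were not called under those mimics. Over all tested genes with a UTR, 14.6% of genes with the miR-380-3p heptamer were called lower under that mimic, against 4.13% without it. The figures were 9.44% and 2.74% for miR-100-3p, 28% and 8.21% for miR-485-3p and 40.5% and 8.87% for miR-99b-5p. For miR-1915-3p they were 0.484% and 0.218%, and for miR-1283 0.0384% and 0.0201%.

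Other SNAREs were taken from a list of 27, of which 25 had a row and 24 were tested. Under miR-485-3p, where 4 of the 9 SNAREs above rose and 0 fell, 1 of these 24 rose and 6 fell, with a median log2 change of -0.08 beside 0.02 over all genes (background 21.1% called). VAMP7, an R-SNARE of late endosomes and lysosomes, fell from 13.6 ± 0.662 to 3.51 ± 0.749 CPM (SD, n = 4; -1.97 ± 0.12, adjusted p = 7.29e-12, edgeR). It is a pseudoautosomal gene whose reads the table divides evenly between an X and a Y row, and its level here is that of the X row. None of its 6 coding transcripts holds a miR-485-3p heptamer in the 3′ UTR, and all 6 hold one upstream of it. VTI1B, an endosomal SNARE, fell from 87.0 ± 3.46 to 43.8 ± 8.87 CPM (-0.99 ± 0.09, adjusted p = 7.4e-09, edgeR) with no heptamer in its 3′ UTRs. STX2, a plasma membrane syntaxin with 2 heptamers, fell from 54.2 ± 3.60 to 35.5 ± 3.96 CPM (-0.61 ± 0.09, adjusted p = 1.21e-05, edgeR). STX3 and SEC22B were also called lower, and the 1 that rose was STX12, an endosomal syntaxin (31.9 ± 1.17 to 42.7 ± 3.98 CPM, 0.42 ± 0.07, adjusted p = 0.000157, edgeR).

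STX3, a syntaxin also called lower, holds no miR-485-3p heptamer in its longest 3′ UTR, but 2 of its 6 coding transcripts hold a match in theirs. In the longest 3′ UTR, 1 of the 6 other SNAREs called lower under miR-485-3p held the heptamer, and 0 of the 1 called higher. The 2 heptamers of STX2 are shown because they stand in the longest 3′ UTR of a syntaxin that fell. They are given in 27 bases of the transcript with the heptamer in capitals (GENCODE v29, GRCh38).
STX2 first (chr12:130791769-130791775, minus strand): gtgctgaccttgtaaTGTATGAgttca
STX2 second (chr12:130790488-130790494, minus strand): tttagacttgtaaaaTGTATGAactgg

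Under miR-99b-5p 2 of the 24 rose and 1 fell (background 16.6%): STX6, a syntaxin of the trans-Golgi network (41.3 ± 1.25 to 56.8 ± 2.25 CPM, 0.46 ± 0.07), STX12 (0.46 ± 0.07) and STX8 (-0.37 ± 0.09, adjusted p = 0.00615, edgeR). Under miR-380-3p (background 10.9%) 1 rose, VTI1A (0.33 ± 0.09), and 2 fell, STX16 (162 ± 8.68 to 131 ± 11.2 CPM, -0.30 ± 0.06) and STX12 (-0.27 ± 0.08, adjusted p = 0.0201, edgeR). STX12 therefore rose under miR-99b-5p and miR-485-3p and fell under miR-380-3p, each against the same controls. VTI1A, called higher under miR-380-3p, holds that mimic's heptamer in the 3′ UTR of 1 of its 2 coding transcripts, though not in the longest. Under miR-100-3p (background 5.96%) 0 rose and 1 fell, SEC22B (103 ± 5.78 to 85.7 ± 6.32 CPM, -0.27 ± 0.07, adjusted p = 0.0162, edgeR). Under miR-1915-3p (background 0.246%), YKT6 was the 1 called, from 145 ± 6.65 to 119 ± 8.52 CPM (-0.28 ± 0.06, adjusted p = 0.0444, edgeR); its 3′ UTR holds 3 heptamers for that mimic, and the call was lost when any 1 of the 8 libraries was left out. None was called under miR-1283 by edgeR, where 0 of the 24 had an unadjusted p under 0.05; DESeq2 also called 0.

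**Figure D5:**
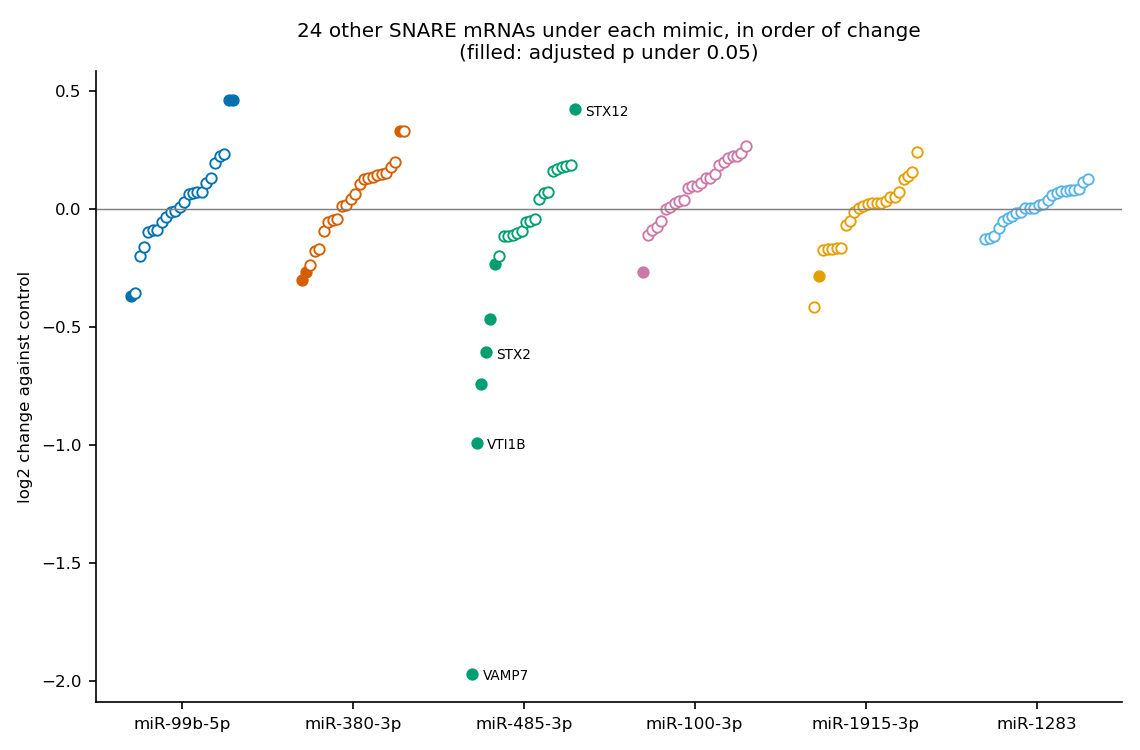
Log2 change against the control (vertical axis) of 24 other SNARE mRNAs under each mimic (horizontal axis), ordered within a mimic; filled points have an adjusted p under 0.05 and VAMP7, VTI1B, STX2 and STX12 are named under miR-485-3p. VAMP7 (-1.97) and VTI1B (-0.99) under miR-485-3p lie below all other points.

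Of 45 regulators of SNARE assembly, 38 were tested, and their median log2 change lay between -0.06 and 0.02 under the 6 mimics, beside -0.01 to 0.02 over all genes. Counts of higher and lower calls were 5 and 4 under miR-99b-5p (background 16.6%), 2 and 4 under miR-380-3p (10.9%), 5 and 7 under miR-485-3p (21.1%), and 5 and 3 under miR-100-3p (5.96%), with none under miR-1915-3p or miR-1283 by edgeR (unadjusted p under 0.05: 5 and 1; DESeq2: 1 and 0). NSF, the ATPase that takes spent SNARE bundles apart, fell under miR-100-3p from 133 ± 6.77 to 92.4 ± 9.23 CPM (SD, n = 4; -0.52 ± 0.08, adjusted p = 0.00015, edgeR). It rose under miR-485-3p to 179 ± 24.0 CPM (0.43 ± 0.08, adjusted p = 0.000252) and under miR-99b-5p to 159 ± 3.85 CPM (0.26 ± 0.08, adjusted p = 0.0228, edgeR). The 3 NSF coding transcripts with an annotated 3′ UTR hold a miR-100-3p heptamer upstream of that UTR and none in it. Upstream miR-100-3p heptamers are also in SNAP47 (8 of 8 such transcripts) and BNIP1 (4 of 5), other SNAREs not called under that mimic. Among regulators and vesicle proteins, only NSF and SYPL1 were searched upstream. The share of all genes with an upstream match was not taken. CPLX2, a complexin that clamps assembled SNAREs, fell under miR-485-3p from 253 ± 15.9 to 162 ± 20.1 CPM (-0.64 ± 0.10, adjusted p = 4.31e-05, edgeR). SYT2, a fast calcium sensor, fell under the same mimic from 76.3 ± 4.83 to 52.5 ± 5.22 CPM (-0.54 ± 0.08, adjusted p = 1.39e-05, edgeR) and rose under miR-100-3p to 93.8 ± 5.28 CPM (0.30 ± 0.08, adjusted p = 0.02, edgeR). VPS45, a syntaxin chaperone, fell by 0.47 ± 0.08 on the log2 scale under miR-485-3p. A miR-485-3p heptamer in the longest 3′ UTR was held by 2 of the 7 regulators called lower under that mimic and 1 of the 5 called higher. RPH3A (rabphilin, an effector of RAB3 that binds SNAP25) fell from 136 ± 3.34 to 73.0 ± 7.36 CPM under miR-380-3p (-0.89 ± 0.10) and to 86.5 ± 10.4 CPM under miR-100-3p (-0.65 ± 0.10), the mimics under which SNAP25 was called lower. CADPS, which primes dense core vesicles, rose under both (0.52 ± 0.07 and 0.44 ± 0.07) and under miR-99b-5p (0.28 ± 0.07). SYT9, another calcium sensor of vesicles, rose under miR-99b-5p from 1.03 ± 0.357 to 3.40 ± 1.03 CPM (1.72 ± 0.24, adjusted p = 7.08e-06, edgeR).

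Of 28 secretory vesicle proteins, 25 were tested, with medians between -0.05 and 0.17 under the 6 mimics, beside -0.01 to 0.02 over all genes. Higher and lower calls were 4 and 2 under miR-99b-5p (background 16.6%), 1 and 4 under miR-380-3p (10.9%), 4 and 4 under miR-485-3p (21.1%), and 1 and 2 under miR-100-3p (5.96%), with none under miR-1915-3p or miR-1283 by edgeR (unadjusted p under 0.05: 3 and 1; DESeq2: 0 and 0). SYPL1, a synaptophysin-like protein whose 3′ UTR holds 1 heptamer each for miR-380-3p, miR-485-3p and miR-100-3p, fell from 15.4 ± 2.51 to 7.77 ± 1.24 CPM under miR-485-3p (-0.98 ± 0.16) and to 7.35 ± 0.561 CPM under miR-100-3p (-1.06 ± 0.16, adjusted p = 7.96e-05, edgeR). It was not called under miR-380-3p. SV2A, another of these vesicle proteins, holds 1 heptamer for miR-485-3p and rose under that mimic (0.48 ± 0.10, adjusted p = 0.000646, edgeR). SCG2, a granin of dense core vesicles, rose under miR-99b-5p from 30.1 ± 0.768 to 74.7 ± 10.3 CPM (1.31 ± 0.10, adjusted p = 6.52e-10, edgeR) and under miR-380-3p to 44.1 ± 2.47 CPM (0.55 ± 0.10, adjusted p = 0.000651, edgeR), and fell under miR-485-3p to 20.3 ± 1.88 CPM (-0.56 ± 0.11, adjusted p = 0.000335, edgeR). CHGA, another granin and an abundant one here (3310 ± 225 CPM in controls), was called lower under each of the 4 mimics with SNARE calls, with log2 changes of -0.84 ± 0.11 under miR-485-3p (adjusted p = 5.25e-06), -0.54 ± 0.11 under miR-380-3p (adjusted p = 0.00224), -0.38 ± 0.11 under miR-100-3p (adjusted p = 0.0481) and -0.33 ± 0.11 under miR-99b-5p (adjusted p = 0.043, edgeR). The miR-100-3p call of CHGA was kept in only 9 of 17 alternative analyses. It was lost when any 1 of the 4 controls was left out (adjusted p 0.0522 to 0.13, edgeR). The miR-99b-5p call of CHGA, also close to the threshold, was not run through the alternatives.

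For the 3 SNAREs with the largest log2 changes, the genes whose log2 CPM was most like theirs over the 28 libraries were taken from 11478 genes; the correlations are descriptions, since libraries of a group share their treatment. For VAMP3 they were PRC1 (Pearson r = 0.93), RASSF3 (0.93) and RPS6KA2 (0.93). RPS6KA2 fell under miR-100-3p from 41.1 ± 2.37 to 14.4 ± 2.35 CPM (-1.52, adjusted p = 2.88e-11, edgeR), close to the size of the VAMP3 change, while PRC1 (-0.44) and RASSF3 (-0.65) fell less. For SNAP29 they were FAM184A (0.87), PITRM1 (0.86) and PAXIP1 (0.85), and for SNAP23 ACTR2 (0.90), UHMK1 (0.90) and GPR180 (0.89). Under miR-380-3p, ACTR2 fell from 191 ± 16.3 to 109 ± 12.9 CPM (-0.81, adjusted p = 6.11e-05, edgeR).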

How the data were processed

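Messenger RNA of 28 Kelly cell libraries was sequenced with a stranded poly(A) library kit, per the labels' protocols. The deposited table gives the authors' expected counts for each gene and a gene length; 10.2% of its values are not whole. Alignment was to hg19 with STAR, per the submitters' processing notes; the version of STAR, the counting tool, its annotation and the filter behind the table are not given in the sources used here. Of 30887 rows, 951 held no count.

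Expected counts were rounded to whole numbers and fitted with edgeR 4.0.16 (filterByExpr, TMM, quasi-likelihood F-test, 1 coefficient per group, 21 residual degrees of freedom) under R 4.3.3. Contrasts were mimic minus control and mimic minus mimic, two-sided, with p-values adjusted by Benjamini-Hochberg over 15058 genes. Levels per kilobase used the authors' gene length. The script was tested on simulated counts, with miR-100-3p against the control. There, 20.2% of genes given a log2 change of 0.4 in size were called in the right direction, and 94.9% of those given 1.5. Of the calls, 5.83% were false. A gene that is not called may therefore still have a change of the smaller size. Alternatives were DESeq2 1.42.0, limma-voom 3.58.1, library-size and median-of-ratios scaling, no filter, a replicate block, the GC slope as covariate (a GC fraction was found for 98.7% of tested genes), only the 8 libraries compared, and leaving out each library. Leaving out the libraries with a GC slope beyond 2 was chosen after seeing the data. Seed matches were heptamers in the longest 3′ UTR of at least 50 bases of protein-coding transcripts. The correlation between any pair of libraries was 0.954 to 0.992 and none were identical.

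The 10 genes and the lists were chosen with earlier results of these data known. The genes named are the 10 SNAREs, up to 4 called genes of each list and mimic with the smallest adjusted p (not all are described; STX3 and SEC22B under miR-485-3p are named beyond it, chosen after their values were seen, and 1 other gene in that count is not reported here), and the 3 genes most like each of the 3 SNAREs with the largest changes. The lists were 27 other SNAREs, 45 regulators, 28 vesicle proteins and 14 cell type markers, written from general knowledge.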

Additional observations from a re-analysis of the deposited data

Results flagged for a closer look

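A single library stood apart from the other 3 of its group in 4 of the 63 groups of 4 libraries tested (9 genes in 7 groups), where chance gives about 1 in 20. VAMP4 was lowest in scrambled control replicate 5, at 17.0 CPM against 18.5 to 18.8 in the other controls, and lowest in miR-380-3p replicate 2, at 15.6 CPM against 19.9 to 20.5. SNAP23 was lowest in miR-1283 replicate 4, at 33.8 CPM against 38.2 to 38.9. STX4 was lowest in miR-485-3p replicate 3, at 6.10 CPM against 7.37 to 7.55.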

How the results depend on the processing

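VAMP3 under miR-100-3p (log2 -1.62 to -1.53), SNAP25 (-0.45 to -0.35) and SNAP23 (-0.49 to -0.38) under miR-380-3p and SNAP29 under miR-485-3p (0.46 to 0.53) kept their direction and call in all 17 alternatives run for each. SNARE calls under miR-99b-5p (1) became 0 with library-size scaling, no filter or only the 8 libraries, 5 with the GC slope as covariate (3 from 2 under miR-380-3p), and 0 to 1 when a library was left out. Calls under miR-485-3p (4) became 1 with no filter or only the 8 libraries, 7 with the GC slope, and 1 to 4 when a library was left out. Calls under miR-100-3p (2) became 1 with library-size scaling, no filter or only the 8 libraries, 5 with the GC slope, and 1 to 2 when a library was left out. Over all genes, calls under miR-99b-5p (2498) became 2297 with library-size scaling, 1960 with no filter and 2940 with only the 8 libraries. Those under miR-485-3p (3176) became 2354 with no filter and 2000 with only the 8 libraries. Those under miR-100-3p (897) became 770, 564 and 491 with library-size scaling, no filter and only the 8 libraries. Totals with the GC slope are given above. For miR-100-3p, other SNAREs (1) became 3 with DESeq2 and 2 without the libraries of GC slope beyond 2, and vesicle proteins (3) became 5 without those libraries. Leaving out 1 library gave other SNAREs 1 to 3 under miR-380-3p, 0 to 1 under miR-100-3p and 0 to 0 under miR-1915-3p, and regulators 5 to 8 under miR-100-3p. DESeq2 called 1 regulator under miR-1915-3p. With hexamers in place of heptamers, 6, 3, 2 and 5 of the 10 genes held a match for miR-1915-3p, miR-100-3p, miR-485-3p and miR-380-3p (2, 1, 1 and 3 with heptamers). STX1A under miR-99b-5p (0.05) was -0.027 at lowest and 0.149 at highest when a library was left out. The cause was not tested, beyond fewer samples or genes where libraries or the filter were left out.

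In no comparison with 3 same-numbered pairs did every pair's deviations correlate above 0.1 (correlations -0.09 to 0.30). For miR-1283 they were 0.17, 0.07 and 0.30. For miR-99b-5p, with only 2 such pairs, both lay above 0.1 (0.13 and 0.17). The labels tie no numbers to shared cultures. With the replicate block, VAMP2 under miR-485-3p was called (0.28), SNARE calls under miR-100-3p were 1, other SNAREs 3 and vesicle proteins 5 under that mimic, and STX1A under miR-99b-5p was -0.074. Genes with few counts (STX4, 57 to 149 a library) allow only wide intervals.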
